A study of Mus musculus with 6 samples.

Results

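The LSm proteins are small RNA-binding proteins of the Sm fold that close into rings of 7 subunits. The genes described here are Lsm1, Lsm2, Lsm3, Lsm4, Lsm5, Lsm6 and Lsm7, chosen by name, and each matched exactly 1 of the 21307 rows of the deposited expression table. Bone marrow B cells of pre-tumoral mice, 6 to 8 weeks old and of a C57BL/6 x 129S1/SvlmJ background, had been grown with interleukin 7 at 5 ng/µl. All cells, controls included, carried the Eµ-myc transgene (MYC under an immunoglobulin enhancer, active in B-lineage cells), loxP-flanked Prmt5 alleles and CreER, a Cre recombinase switched on by tamoxifen. The 4-OHT condition received 50 nM 4-hydroxytamoxifen (4-OHT) for 24 h to delete Prmt5, the ethanol condition received the solvent, and both were washed and cultured for 5 more days before messenger RNA was sequenced. Each condition had 3 libraries. The library titles (WT and PT) and the design text speak of wild-type and pre-tumoral mice, whereas the sample characteristics give 1 genotype and differ by treatment, and the conditions are named here by treatment. The labels give neither the promoter of CreER nor whether the libraries of a condition came from separate mice. Effects of 4-OHT or of active Cre and effects of losing Prmt5 cannot be told apart in this design.

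LSm2 to LSm7 are shared by both rings. With LSm1 they form the cytoplasmic ring, which binds the shortened tail of messenger RNAs together with PAT1 and promotes removal of the cap and decay from the 5′ end. With LSm8 they form the nuclear ring, which binds the uridine-rich 3′ end of U6 small nuclear RNA and takes part in building the U4/U6 and tri-snRNP particles of the spliceosome. LSm4 carries a tail rich in arginine and glycine, and it is, like the Sm proteins B, D1 and D3, a known substrate of the arginine methyltransferase PRMT5. The values below measure messenger RNA and neither methylation, ring assembly nor splicing.

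Promoter sequences are shown first for Lsm7 and Lsm6, which had the lowest ratios of 4-OHT to ethanol, and for Lsm5. The ratio of Lsm5 was less low than these, but that of Lsm3, whose promoter is not shown, was closer to most genes. The sequences come from RefSeq on GRCm38.p6 and run 5′ to 3′ on the gene's strand. Stretches covered by annotated exons are left out. Capitals mark CACGCG or CCGGAA, or the reverse complements CGCGTG or TTCCGG. The Lsm7 stretch is chr10:80855210-80855274 on the minus strand, directly before the start of the gene. Lsm7 also has a start site inside the gene, at 80855156. A further exon-free Lsm7 stretch, chr10:80855389-80855459, is not printed and holds none of the marked sequences. The Lsm6 stretch is chr8:78821153-78821402 on the minus strand, directly before the start of the gene. The Lsm5 stretch is chr6:56704711-56704949 on the minus strand.
Lsm7: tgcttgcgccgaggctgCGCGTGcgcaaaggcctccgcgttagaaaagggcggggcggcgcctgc
Lsm6: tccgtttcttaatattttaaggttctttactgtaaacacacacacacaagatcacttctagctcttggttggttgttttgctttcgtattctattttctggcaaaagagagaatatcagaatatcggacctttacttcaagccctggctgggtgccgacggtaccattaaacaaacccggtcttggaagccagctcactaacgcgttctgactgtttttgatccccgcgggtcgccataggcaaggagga
Lsm5: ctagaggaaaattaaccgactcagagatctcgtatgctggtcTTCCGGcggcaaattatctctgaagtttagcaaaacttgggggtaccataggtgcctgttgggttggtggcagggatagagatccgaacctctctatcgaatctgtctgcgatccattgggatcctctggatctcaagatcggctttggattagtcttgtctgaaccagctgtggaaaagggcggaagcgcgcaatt

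The promoter table held windows of 250 bases before to 50 bases after the start for 5 members, Lsm2, Lsm3, Lsm5, Lsm6 and Lsm7. CACGTG, the E-box that MYC and its partner MAX bind best, reads the same on both strands and was in the windows of 0 of these 5 genes, against 12.3% of 7888 compared genes with a window. CACGCG or CGCGTG, a related sequence, was in the windows of 3 of the 5 (Lsm2, Lsm3 and Lsm7), against 20.5% of those genes. CCGGAA or TTCCGG, the core of sites for ETS factors, was in the window of Lsm5 alone among the 5, against 32.0%. These matches are descriptions of letters in a window. CACGCG and CCGGAA were chosen after the promoters had been seen. A window with several matches was counted once, CACGCG and CGCGTG can overlap each other, and a further CCGGAA or TTCCGG match of Lsm5 lies outside the stretch printed above.

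All values are FPKM (fragment numbers divided by transcript length and by library size), with 1 value per gene and condition, computed by the authors. No value has a replicate error, so no test, SD or p-value can be given and every difference is one of size. Read depth is unknown. Ratios are log2 of (4-OHT FPKM + 1) over (ethanol FPKM + 1), which understates changes of low values. Comparisons used 10856 rows, those above 0 in both conditions whose mean reached 1 FPKM, and all 7 members were among them. Prmt5 itself was at 41.6 FPKM with ethanol and 5.71 FPKM after 4-OHT, a log2 ratio of -2.67. Of its partner genes, Wdr77 and Clns1a had log2 ratios of -0.56 and -0.40 and Coprs, listed as 2410022L05Rik, had 1.04. The ratio of Myc, expressed from the transgene as well, was -0.91.

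All 7 members were lower in 4-OHT than in ethanol, by 1.21-fold for Lsm1 to 1.85-fold for Lsm7. Of all compared genes, 55.1% were lower. The median log2 ratio of the 7 members was -0.49, against -0.07 for all compared genes. At least 20% lower were 5 of 7 members, against 29.9% of compared genes, and at least 1.5-fold lower were 3 of 7 (Lsm4, Lsm6 and Lsm7), against 12.8%. At least 2-fold lower was no member, against 2.58%. Summed over the 7 genes, the level was 448 FPKM in ethanol and 298 FPKM in 4-OHT. Each member also had a lower ratio than the median of the genes within 2-fold of its own mean level, medians that ran from -0.17 to -0.08.

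**Figure D1:**
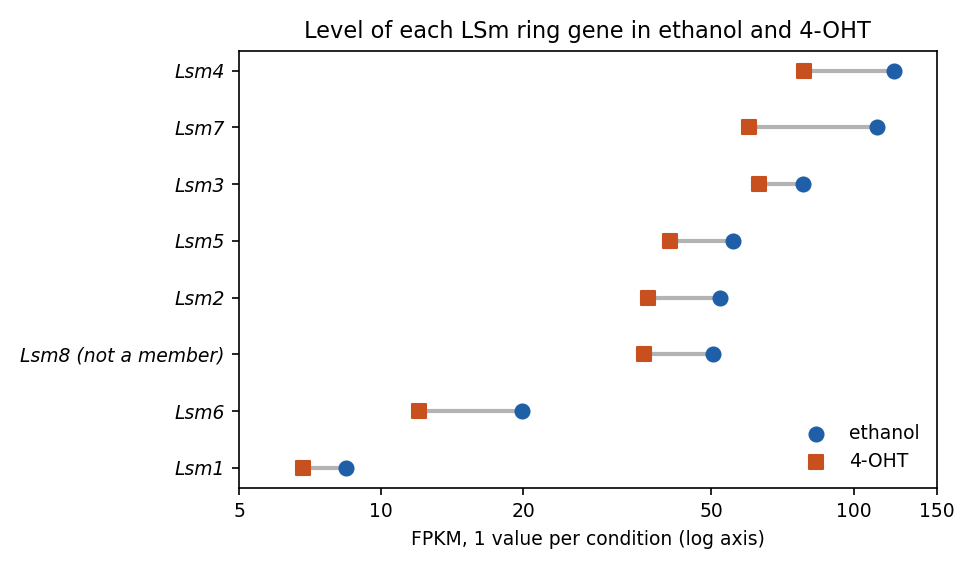
Horizontal axis, FPKM of each gene on a log scale; circles are the ethanol condition, squares the 4-OHT condition, each 1 pooled value without error, and lines join the values of a gene. Every square lies left of its circle, from Lsm1 at 8.44 and 6.82 FPKM to Lsm4 at 122 and 78.6 FPKM; Lsm8 is shown for comparison and is not 1 of the 7.

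Lsm1, the subunit that sets the cytoplasmic ring apart (mm9 chromosome 8, 26896063 to 26914447), measured 8.44 FPKM with ethanol and 6.82 FPKM after 4-OHT. It had the lowest level of the 7 genes in both conditions and a log2 ratio of -0.27 (1.21-fold lower). This ratio was the nearest to 0 of the 7, but with quantile normalization Lsm3 was nearer, at -0.28 against -0.31 for Lsm1, and with the authors' deposited table, which has no pseudocount, both were at -0.31. Of the compared genes, 33.9% had a lower ratio than Lsm1. With 1 pooled value per condition there is no spread against which this difference could be set.

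Lsm8, the counterpart of Lsm1 in the nuclear ring, is not among the 7 genes and is listed in the table as Naa38. That name was read as Lsm8 because RefSeq lists Naa38 as a synonym of Lsm8 on chromosome 6, and because the row's locus on chromosome 6 has the same length, 5418 bases, as the RefSeq gene. Lsm8 measured 50.3 FPKM with ethanol and 36.0 FPKM after 4-OHT, a log2 ratio of -0.47 (1.39-fold lower). Its level was 5.96 times that of Lsm1 in ethanol and 5.27 times in 4-OHT. The log2 ratio of Lsm1 was 0.20 above that of Lsm8 and 0.29 above the median of Lsm2 to Lsm7. Both ring-specific genes were thus lower in 4-OHT, and neither condition brought Lsm1 near the level of Lsm8.

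Among the shared subunits, Lsm7 (mm9 chromosome 10, 80315570 to 80317954) differed most. It measured 112 FPKM with ethanol and 60.2 FPKM after 4-OHT, 1.85-fold lower (log2 ratio -0.89). Only 3.93% of compared genes had a lower ratio. Its share of the summed level of the 7 genes was 25.1% in ethanol and 20.2% in 4-OHT.

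Lsm6 (mm9 chromosome 8, 81328767 to 81345051) was the least abundant shared subunit. It measured 19.8 FPKM with ethanol and 12.0 FPKM after 4-OHT, 1.60-fold lower (log2 ratio -0.68), and 8.87% of compared genes had a lower ratio. The annotated transcripts of Lsm6 differ much in length (the longest principal transcript has 3792 bases and the median is 2107). An FPKM level depends on the length it is divided by. These lengths also differ for other members, such as Lsm1 (2663 and 1503 bases) and Lsm7 (468 and 798.5 bases). The level of Lsm1 beside other genes therefore has the same limit.

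Lsm4 (mm9 chromosome 8, 73197130 to 73202651), the subunit with the tail that PRMT5 methylates, was the most abundant of the 7 in both conditions. It measured 122 FPKM with ethanol and 78.6 FPKM after 4-OHT, 1.54-fold lower (log2 ratio -0.63). Of the genes within 2-fold of its mean level, 13.6% had a lower ratio.

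Lsm2 and Lsm5 lay in the middle of the group in level and in ratio. Lsm2 (mm9 chromosome 17, 35118799 to 35122838) measured 52.0 FPKM with ethanol and 36.8 FPKM after 4-OHT, 1.40-fold lower (log2 ratio -0.49). Lsm5 (mm9 chromosome 6, 56651057 to 56654693) measured 55.4 FPKM with ethanol and 40.8 FPKM after 4-OHT, 1.35-fold lower (log2 ratio -0.43). Lower ratios than theirs were held by 18.0% and 21.7% of compared genes.

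Lsm3 (mm9 chromosome 6, 91466029 to 91472614) had the smallest difference of the shared subunits. It measured 78.2 FPKM with ethanol and 63.1 FPKM after 4-OHT, 1.24-fold lower (log2 ratio -0.30). Its ratio lay close to that of Lsm1, and 31.3% of compared genes had a lower one. Its share of the summed level was 17.4% in ethanol and 21.1% in 4-OHT, the opposite shift to that of Lsm7. The shares of Lsm1, Lsm2 and Lsm5 rose too, and those of Lsm4 and Lsm6 fell. Shares of a sum cannot all fall, so a higher share went with a lower level here.

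In order of level, ethanol gave Lsm4, Lsm7, Lsm3, Lsm5, Lsm2, Lsm6 and Lsm1, and 4-OHT gave the same order except that Lsm3 stood above Lsm7. Without replicate values, which neighbours in these orders differ beyond error cannot be said. Lsm5 and Lsm2 are the closest pair in ethanol, at 55.4 and 52.0 FPKM. The 7 subunit genes were not at equal levels: the highest level was 14.4 times the lowest, that of Lsm1, in ethanol and 11.5 times in 4-OHT. LSm1 is in the cytoplasmic ring only, so equal levels of all 7 need not follow from the make-up of the rings. Among Lsm2 to Lsm7 alone, whose proteins are in both rings, these ratios were 6.15 and 6.56.

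**Figure D2:**
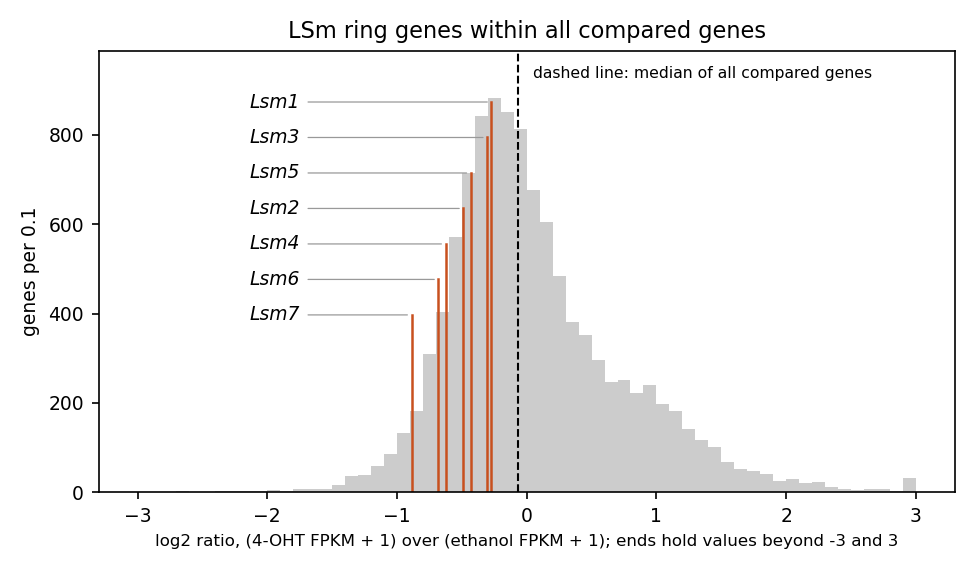
Horizontal axis, log2 ratio of 4-OHT to ethanol (FPKM + 1); vertical axis, number of the 10856 compared genes per step of 0.1; the dashed line is their median (-0.07). Vertical bars mark the 7 members (their height only separates the names): all lie left of the median, and Lsm1 at -0.27 and Lsm3 at -0.30 lie in the tallest part of the distribution, whereas Lsm7 at -0.89 lies in its lower tail.

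Location and transcript structure were not used in the choice by name. Of the 7, 3 lie on chromosome 8 (Lsm1, Lsm4 and Lsm6) and 2 on chromosome 6 (Lsm3 and Lsm5), where Lsm8 also lies. Lsm2 lies on chromosome 17 and Lsm7 on chromosome 10. Principal transcripts of the 7 have 4 or 5 exons in GENCODE M21. Neither chromosomes nor exon numbers were counted over all genes, so these are descriptions only. The median transcript length per member ran from 416 bases for Lsm5 to 2107 bases for Lsm6, against a median of 2682 bases over 10524 compared genes with an annotated length (96.9%). The 2226 genes within both the length range and the level range of the members had a median log2 ratio of -0.11, and 32.6% of them were at least 20% lower.

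Near-identical copies make 3 of the values less certain. Transcripts of other annotated genes aligned at 95% identity or more over at least 100 bases to Lsm5 (Gm10074 and Gm7846), Lsm6 (Gm10043, Gm12571 and Gm2926) and Lsm7 (Gm10146 and Gm13182). None of these names is a row of the table. How the authors divided reads that match several places is not stated by the labels or the table, so reads of Lsm7 and Lsm6, the members with the lowest ratios, may have been shared with copies. For Lsm1, Lsm2, Lsm3 and Lsm4, 0 such copies were found, and an exon of the annotated gene AC161456.1 overlaps Lsm3 on the same strand.

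Partners of the nuclear ring were mostly lower as well. Of 16 genes of the U6, U4/U6 and tri-snRNP particles, 12 were lower, beside 55.1% of all compared genes, and 8 at least 20% lower, beside 29.9%, with a median log2 ratio of -0.33. With equal sums of FPKM 13 were lower, as Snrnp200 changed side. The lowest was Snu13, listed as Nhp2l1, which encodes the protein that binds the U4 stem before PRPF31 joins, at 157 FPKM with ethanol and 97.4 FPKM after 4-OHT (-0.68). Prpf31 itself was at 27.4 and 17.5 FPKM (-0.62). Sart3, which encodes the recycling factor that joins U4 to U6 and contacts the LSm ring, was at 41.4 and 32.3 FPKM (-0.35). Prpf8, the scaffold of the catalytic centre, was at 104 and 81.5 FPKM (-0.35). The highest was Prpf6, which bridges U5 and U4/U6, at 11.5 and 14.7 FPKM (0.32), and Prpf3, a U4/U6 protein, was at 32.1 and 33.0 FPKM (0.04).

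Genes of U6 RNA processing were mostly lower. Of 6, 5 were lower and 4 at least 20% lower, again beside 55.1% and 29.9% of all compared genes, with a median log2 ratio of -0.43. Ssb, which encodes the La protein that holds new U6 RNA before the LSm ring does, was at 133 FPKM with ethanol and 97.7 FPKM after 4-OHT (-0.44). Usb1, listed as AA960436, which encodes the exonuclease that trims the U6 tail, was the exception, at 14.1 and 19.1 FPKM (0.41). Larp7 and Mepce, which encode La-related and capping proteins of 7SK RNA, had log2 ratios of -0.51 and -0.53. Both are counted among the 6 and among the 4 at least 20% lower.

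Partners of the cytoplasmic ring had ratios closer to 0, a difference from the nuclear partners that could not be tested. Of 12 genes of decapping and decay from the 5′ end, 11 were lower, beside 55.1% of all compared genes. With median-of-ratios scaling 10 were lower, as Patl1 changed side. At least 20% lower were 3 of the 12, beside 29.9% of all compared genes. The median log2 ratio of the 12 was -0.20. Patl1, which encodes the PAT1 protein that binds the LSm ring, was near equal, at 18.8 FPKM with ethanol and 18.3 FPKM after 4-OHT (-0.04). Dcp2, the decapping enzyme gene, was at 13.1 and 10.2 FPKM (-0.33), and its activator gene Dcp1a was at 11.3 and 9.22 FPKM (-0.27). Edc3 and Edc4, which encode enhancers of decapping, had log2 ratios of -0.17 and -0.15. Ddx6, the helicase gene of decapping complexes, was at 45.9 and 40.3 FPKM (-0.19), and Upf1, the helicase gene of nonsense-mediated decay, was at 44.1 and 39.9 FPKM (-0.14). Xrn1, the exonuclease gene that follows decapping, was at 5.28 and 4.39 FPKM (-0.22). The lowest was Dcps, at -0.57. It is counted among the 12 and among the 3, although its scavenger enzyme acts on free caps and not on whole messages. The highest was Pnrc1, a decapping co-activator gene, at 0.25.

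The related Sm ring, which is assembled on the other spliceosomal RNAs, had a median close to that of the LSm genes. All 7 Sm genes were lower and 7 were at least 20% lower (55.1% and 29.9% of all compared genes), with a median log2 ratio of -0.47 and a range from -0.66 (Snrpg, the most abundant) to -0.34 (Snrpb), and Snrpd2 was at -0.47. The range of the 7 LSm genes, -0.89 to -0.27, was wider. Levels per transcript length were higher for the Sm genes, which summed to 1811 FPKM in ethanol and 1274 FPKM in 4-OHT. Whether the LSm and Sm ratios differ could not be tested.

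**Figure D3:**
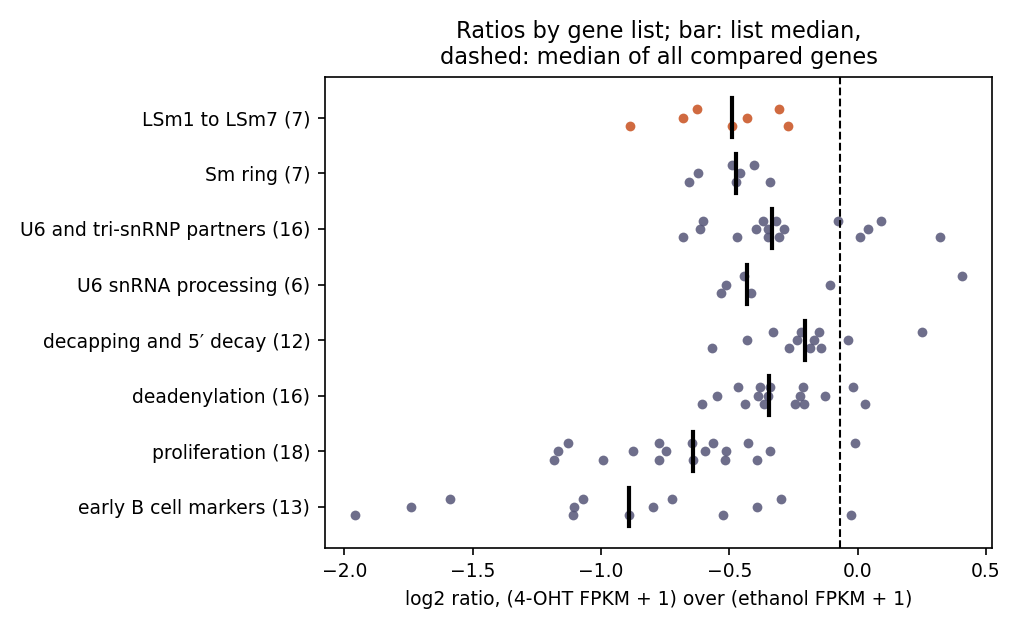
Horizontal axis, log2 ratio of 4-OHT to ethanol (FPKM + 1); each point is 1 gene, each row a gene list with its number of compared genes, black bars are list medians and the dashed line is the median of all compared genes (-0.07). The LSm and Sm medians (-0.49 and -0.47) lie between those of decapping genes (-0.20) and of proliferation genes (-0.64).

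Other gene groups moved in the same comparison, in which 55.1% of all compared genes were lower. Of 18 proliferation genes, 18 were lower (17 with median-of-ratios scaling, where Aurka changed side), with a median log2 ratio of -0.64. Among them the replication genes Pcna and Mcm7 were at -0.43 and -1.17 and the topoisomerase gene Top2a was lowest, at -1.18. Of 13 early B cell markers, 13 were lower (12 with median-of-ratios scaling and 12 with quantile normalization, where Rag1 changed side), with a summed level of 2329 FPKM in ethanol and 1116 FPKM in 4-OHT. Markers of other cells went the other way: 9 of 9 compared neutrophil markers were higher (summed level 366 and 3483 FPKM), as were 9 of 9 compared macrophage markers (846 and 1907 FPKM), 8 of 8 stromal markers (32.3 and 529 FPKM), 6 of 6 megakaryocyte markers (223 and 833 FPKM) and 6 of 6 markers of mast cells, basophils and eosinophils (90.7 and 326 FPKM). Markers of erythroid, T and natural killer cells each summed to at most 16.0 FPKM in either condition. Of 11 neutrophil marker names, 2 were not matched in the table. No matched marker is listed at 0 except the macrophage marker Lyz2, which was not compared: it is listed at 3835 FPKM with ethanol and at 0 with 4-OHT, where a 0 can be a failed estimate. With Lyz2 as listed, the macrophage markers sum to 4681 FPKM with ethanol and 1907 FPKM with 4-OHT, the opposite direction. The part of these shifts in the LSm values was not tested, and in pooled bulk values fewer cells of a type and less RNA per cell cannot be told apart.

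Under each of 6 alternatives, 7 of 7 members were lower in 4-OHT. A pseudocount or the deposited fold change cannot move a gene to the other side. Equal sums of FPKM lowered the ratio of every member, so this scaling could not make a lower member higher. Median-of-ratios scaling moved all genes by the same factor and took Lsm1 from -0.27 to -0.20. Quantile normalization alone could move genes by unlike amounts. The count of 7 of 7 was therefore largely fixed in advance. The median of the members ran from -0.53 to -0.41. Lsm3 passed the mark of 20% lower when both conditions were scaled to equal sums of FPKM, with a log2 ratio of -0.34, and in that setting 6 members passed it.

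**Figure D4:**
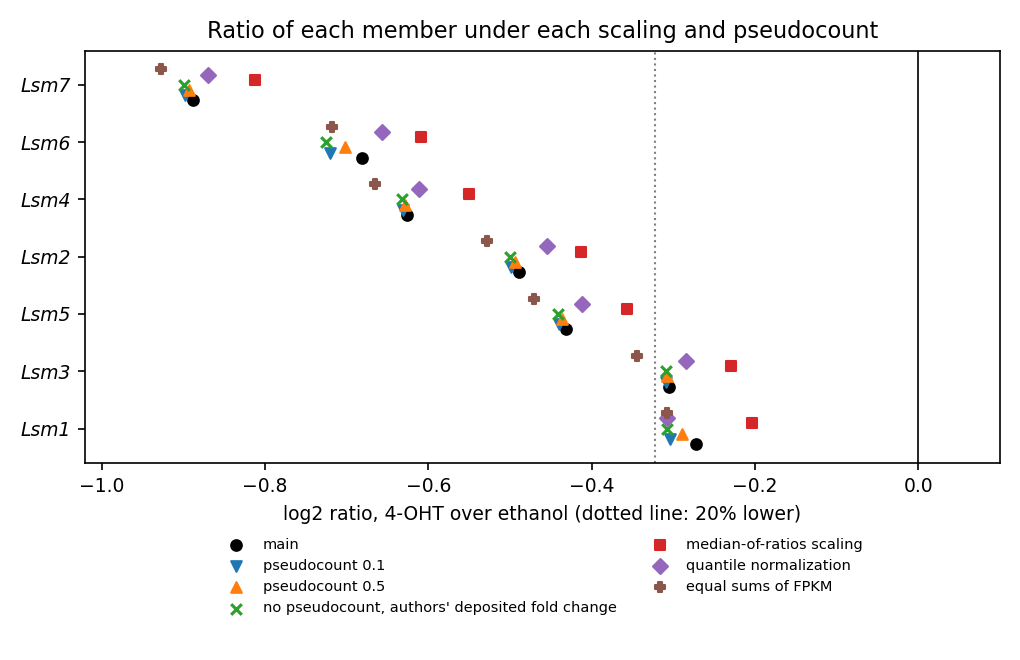
Horizontal axis, log2 ratio of 4-OHT to ethanol; each symbol is 1 scaling or pseudocount, with black circles for the ratios used in the text, and the dotted line marks 20% lower. All symbols lie left of 0, and Lsm7 keeps the lowest ratio in every setting, between -0.93 and -0.81.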

How the data were processed

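RNA of 6 libraries (3 ethanol, 3 4-OHT) was sequenced, and the deposited table gives 1 FPKM value per gene and condition, made by the authors. The submitters' processing notes name CASAVA, TopHat2 2.0.9, Cufflinks 2.1.1 and build mm9. How libraries were combined and conditions scaled is not stated by the labels or the table. The authors' deposited log2 fold changes matched log2 of the 4-OHT over the ethanol value within 0.01 in 15756 of 15756 rows above 0 in both.

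With 1 value per condition, the planned limma test was not run. Calls are by size (at least 20% lower, 1.5-fold or 2-fold lower), with a pseudocount of 1 FPKM. The calculation was checked on simulated ratios. Locus starts were raised by 1, since locus lengths equalled RefSeq gene lengths in 6341 rows with starts counted from 0 and in 437 with starts counted from 1. RefSeq and GENCODE M21 (GRCm38) served for names, lengths, copies and promoters; protein sequences were not analysed here. The members and lists were chosen with earlier results of these data known. The text names all members, Prmt5, Wdr77, Clns1a, Myc and Lsm8, from each gene list other than the cell type markers the 2 genes with the highest mean FPKM and the extremes of ratio, and any gene of the decapping, U6-partner and other LSm lists. Software was Python 3.11.15, numpy 2.4.6, pandas 2.3.3, matplotlib 3.10.9 and BLAST 2.17.0.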

Additional observations from a re-analysis of the deposited data

How the results depend on the processing

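Pseudocounts of 0.1 and 0.5 FPKM, the authors' deposited fold changes, median-of-ratios scaling, quantile normalization and equal sums of FPKM were tried for each member. All 7 stayed lower in 4-OHT. The pseudocounts and the deposited fold changes could not change the side of a gene. Equal sums of FPKM could not make a lower gene higher, and median-of-ratios scaling moved all genes by the same factor. The call of a member as at least 20% lower changed only for Lsm3, at -0.34 with equal sums. Ratios ran from -0.31 to -0.20 for Lsm1 and from -0.93 to -0.81 for Lsm7. With no filter on the mean, the median of all compared genes was 0.0099 in place of -0.07. The list medians of U6 and tri-snRNP partners and of deadenylation genes were less than 20% lower with median-of-ratios scaling (-0.26 and -0.27) and with quantile normalization (-0.29 and -0.31). No paired analysis was possible because values of single libraries are not in the table used. For the same reason the replicate block and leaving out each library were not run. Depth is unknown. The pseudocount moved Lsm6 and Lsm1, the members at the lowest levels, most: with 0.1 FPKM they were at -0.72 and -0.30.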

Other observations

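LSm proteins outside the decay and U6 rings were also measured. Lsm10 and Lsm11, which replace the D1 and D2 subunits in the Sm ring of U7 RNA, the RNA of histone message processing, went apart: Lsm10 was at 14.9 FPKM with ethanol and 15.6 FPKM after 4-OHT (log2 ratio 0.06), and Lsm11 at 3.54 and 2.28 FPKM (-0.47). Lsm14a, which encodes a larger protein of processing bodies, was at 63.8 and 48.5 FPKM (-0.39), and its relative Lsm14b at 9.10 and 10.1 FPKM (0.14). Lsm12 was at 34.0 and 27.1 FPKM (-0.32), and Lsmd1, whose newer name Naa38 the table gives to Lsm8, at 52.7 and 43.9 FPKM (-0.26). Of the 7 genes of this list, Lsm8 included, 5 were lower, and 5 were lower under every scaling tried. Of all compared genes, 55.1% were lower (50% to 58.0% under the scalings).

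Deadenylation, the step before the cytoplasmic LSm ring binds a message, had 15 of 16 genes lower, beside 55.1% of all compared genes. With median-of-ratios scaling 14 were lower and with equal sums of FPKM 16, with Cnot7 and Tob2 changing side. The median log2 ratio of the 16 was -0.35. Pabpc1, which encodes the main poly(A)-binding protein, was lowest, at 705 FPKM with ethanol and 463 FPKM after 4-OHT (-0.61). Cnot8, a deadenylase subunit gene of the CCR4-NOT complex, was at 47.6 and 40.0 FPKM (-0.24), and Tob2, which encodes a protein that recruits deadenylases, was highest, at 0.03. Of the 16, 9 were at least 20% lower, beside 29.9% of all compared genes.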
